A study of Mus musculus with 25 samples.

Results

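Retinoic acid synthesis, binding and receptor genes were followed through the forming mouse palate. The 9 genes were Aldh1a2, Aldh1a3, Dhrs3, Cyp26b1, Crabp1, Crabp2, Rara, Rarb and Rarg, chosen by name from a table of 37406 genes, of which 22399 were above 0 in at least 1 library. All 9 were found. The tissue was palate of CD1 wild type embryos at E14.5, and no sample was treated or mutant. At both the anterior and the posterior level, medial, lateral, oral and nasal tissue was cut by laser capture, so that the shelf was divided once from medial to lateral and once from oral to nasal. Each of the 8 compartments had 3 replicates, except the anterior nasal compartment with 4, which gave 13 anterior and 12 posterior libraries. The labels do not tie replicates to embryos, so the p-values measure the spread between these samples.

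Retinoic acid is made from vitamin A in a pair of oxidations, from retinol to retinal and from retinal to retinoic acid. The last step is carried out by retinaldehyde dehydrogenases, and cytochromes of the Cyp26 family break the product down, so that cells with the former act as sources and cells with the latter as sinks. Inside cells retinoic acid is carried by the binding proteins Crabp1 and Crabp2, and it acts through the nuclear receptors Rara, Rarb and Rarg, which pair with retinoid X receptors on DNA. An excess of retinoic acid is a classical cause of cleft palate in the mouse, and the palate and other facial tissues also depend on its supply.

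Values are RPKM, which divide the reads of a gene by its length in kilobases and by the reads of the library, so that levels can be compared between genes. Depth as implied by the values was 1.64 to 6.56 M reads a library, with a median of 3.27 M, so that 1 read on a transcript of 2000 bases was worth 0.0763 to 0.305 RPKM and counting error alone at 5 RPKM was 12.4% to 24.7%. The scale of these values in reads rests on the lengths of 3 miRNA genes, and they cover counting error only. A pair of libraries stood apart. Posterior medial replicate 2 had the fewest genes above 0, 12935 against up to 20605 elsewhere, and a median correlation with its replicates of 0.652 over genes, and anterior oral replicate 1 was the shallowest, with a median correlation of 0.703. Differences of the 9 genes from main fits that held either are also given without it. The libraries came from 8 sequencing runs, and no run held both anterior medial and anterior lateral libraries, or both posterior medial and posterior lateral ones. The 6 markers of palate mesenchyme were above 0 in all 25 libraries and summed to 483 to 879 RPKM. In tissue of mixed cells, fewer cells of a type and less RNA per cell cannot be told apart.

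The binding proteins were the most abundant of the 9 genes and Rarb the least. Crabp1 averaged 121 ± 54.2 RPKM (SD, n = 25 libraries) and Crabp2 70.4 ± 23.9. Cyp26b1 averaged 29.0 ± 15.1, Rara 23.5 ± 10.01 and Rarg 23.1 ± 8.50. Dhrs3 stood at 14.7 ± 6.90, Aldh1a2 at 7.09 ± 5.42, Aldh1a3 at 5.16 ± 4.53 and Rarb at 2.92 ± 1.91. Within every one of the 25 libraries the RPKM of Cyp26b1 was above that of Aldh1a2, and those of Rara and Rarg were above that of Rarb. Other orders were mixed: Crabp1 was above Crabp2 in 20 libraries, Rara above Rarg in 14 and Aldh1a2 above Aldh1a3 in 14.

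Over the 8 compartments, Aldh1a2, Crabp1 and Cyp26b1 varied by more than their replicates did. The test was limma's moderated F test on log2(RPKM + 0.1), with adjusted p by Benjamini-Hochberg over the 11913 genes tested. It called 3 of the 9 genes, where 4.42% of all genes tested were called. The adjusted p was 8.3e-05 for Aldh1a2, 0.00901 for Crabp1 and 0.0472 for Cyp26b1. It was 0.105 for Aldh1a3, 0.329 for Rarb, 0.448 for Dhrs3, 0.562 for Rarg, 0.777 for Crabp2 and 0.910 for Rara. The call for Aldh1a2 held in each of 34 alternative fits, with adjusted p from 2.66e-05 to 0.0206. That for Crabp1 was lost only without posterior medial replicate 3, at 0.0552. That for Cyp26b1 was lost in 19 of the 25 fits that left out 1 library, at 0.0560 to 0.138. Aldh1a3 and Dhrs3 passed without posterior medial replicate 1, at 0.0476 and 0.0365, and without both libraries that stood apart 6 of the 9 genes passed. When the compartments of each gene were put in order of mean level, most neighbours in the order had overlapping replicates: 7 of 7 neighbouring pairs for Aldh1a3, Dhrs3, Crabp2 and each receptor, 6 of 7 for Aldh1a2 and Cyp26b1 and 5 of 7 for Crabp1.

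**Figure D1:**
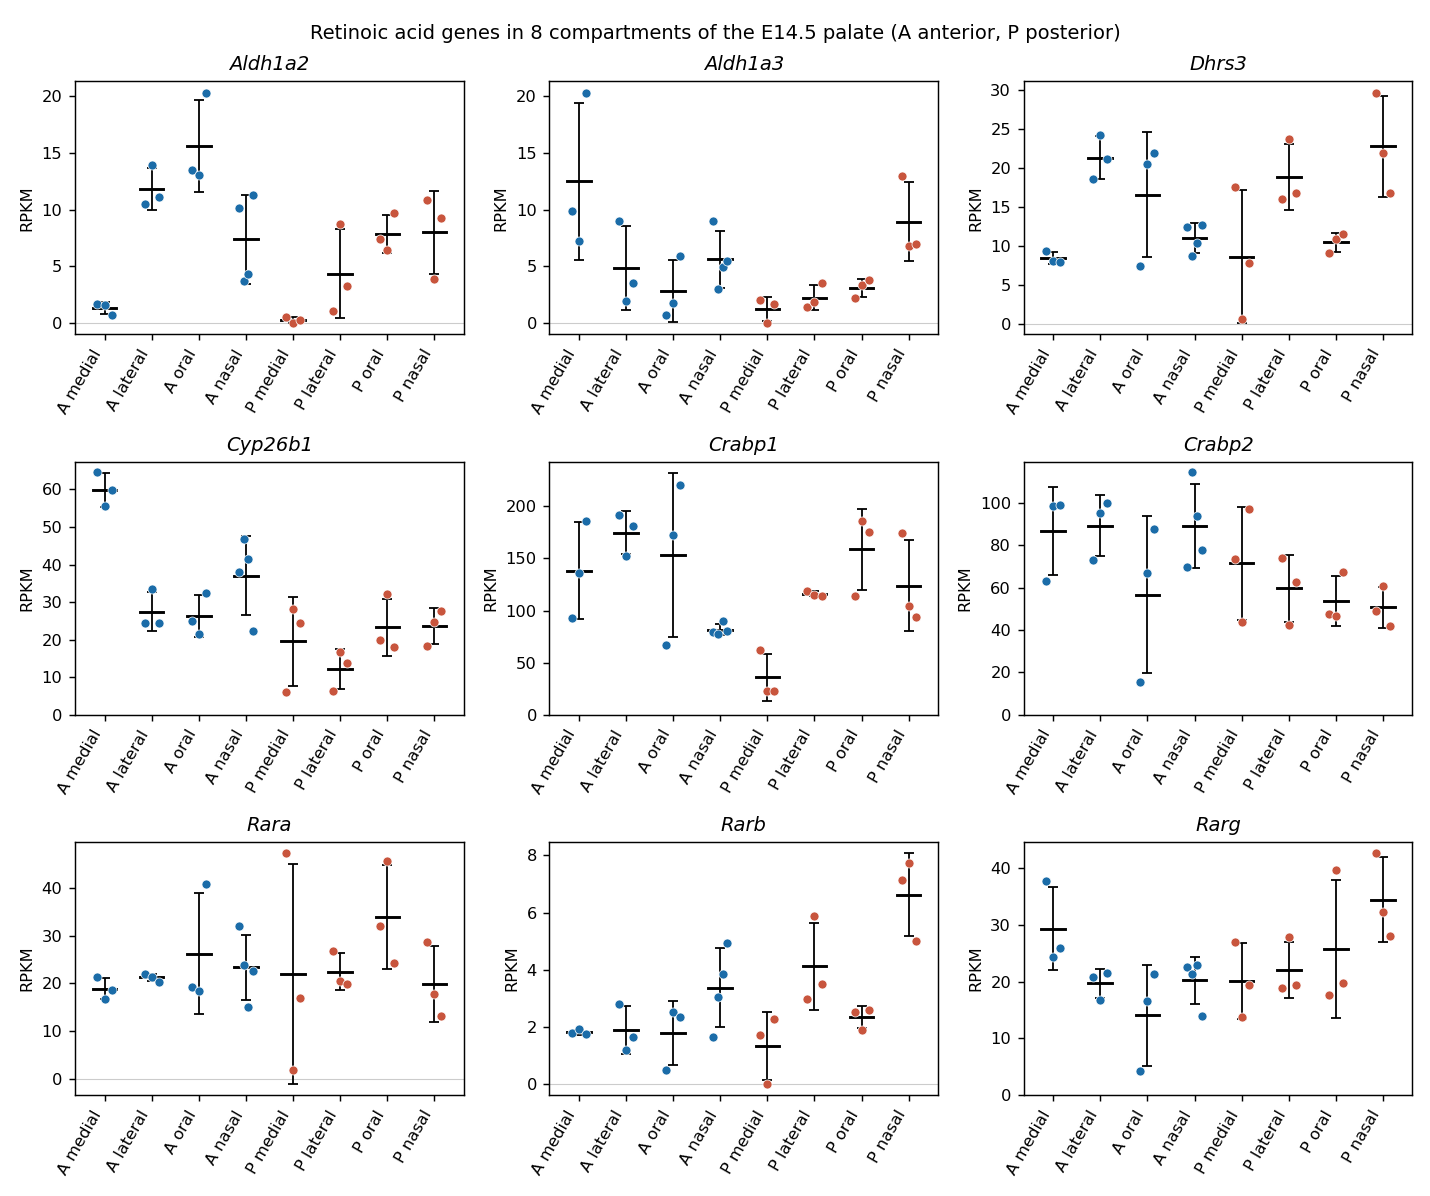
RPKM of the 9 retinoic acid genes (y axis, linear) in the 8 compartments (x axis, anterior in blue, posterior in red). Each point is a library, the thick line is the mean and the bar is the SD; Aldh1a2 lies at 0.713 to 1.62 RPKM in anterior medial libraries and at 10.5 to 14.0 in anterior lateral ones, while Cyp26b1 is highest in the anterior medial compartment.

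Aldh1a2, a retinaldehyde dehydrogenase and the main maker of retinoic acid in the early embryo (gene 19378, chromosome 9, 71063596 to 71144050, mm9), had lower means in the medial compartments than in the others. Posterior lateral replicate 1, at 1.06 RPKM, lay among the anterior medial libraries. In the anterior medial compartment it was at 1.62, 1.62 and 0.713 RPKM, and in the anterior lateral compartment at 10.5, 14.0 and 11.1. Every lateral library was therefore well above every medial one. The log2 difference of lateral from medial was 3.15 (SE 0.30), or 8.85-fold on the log2(RPKM + 0.1) scale, with an adjusted p of 0.00328. Aldh1a2 passed the minimum of that comparison, 5 RPKM in at least 3 samples, only through the lateral libraries. The call held without any 1 medial library, at adjusted p of 0.00224 to 0.0107, and without a lateral one the gene fell below the minimum. It was lost with quantile normalization, at an adjusted p of 0.0537, and the difference was 2.27 with an adjusted p of 1.00 in a fit of all libraries with run as a term. The 5 endothelial markers summed to 132 to 150 RPKM in the anterior lateral libraries and 96.6 to 115 in the medial ones, and their part in the difference was not tested.

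In the posterior palate the same gene was at 0.487, 0 and 0.229 RPKM in the medial compartment and at 1.06, 8.71 and 3.23 in the lateral one. The groups again did not overlap, but the lateral libraries ranged widely, and Aldh1a2 was below the minimum. Fitted without a minimum, the log2 difference was 3.60 (SE 0.96, adjusted p = 0.938), a value that depends on the pseudocount because the 0 is that of posterior medial replicate 2. Without that library the means differed by 2.88 on the log2 scale, with no test. Every library of the other compartments had more Aldh1a2 than any posterior medial one, and the log2 difference of posterior from anterior medial, fitted without a minimum, was -2.32 (SE 0.74, adjusted p = 0.824), or -1.61 without posterior medial replicate 2, with no test.

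Oral levels of Aldh1a2 were 13.5, 13.0 and 20.3 RPKM in the anterior palate, the highest compartment mean of the gene at 15.6 ± 4.10 (n = 3), against 10.2, 3.73, 4.30 and 11.3 in anterior nasal libraries. Every oral library was above every nasal one, and oral was above nasal in each of the 3 runs that held both, by 0.85, 1.11 and 1.58 on the log2 scale. The difference over all libraries was 1.21 (SE 0.44, unadjusted P = 0.0256), with an adjusted p of 1.00, and 1.30 (adjusted p = 0.560) without anterior oral replicate 1. Endothelial markers were at 116 to 176 RPKM in anterior oral and 64.5 to 110 in anterior nasal libraries, and their part was not tested. Posterior oral and nasal libraries overlapped, at 7.44, 6.42 and 9.74 against 10.9, 3.88 and 9.25 RPKM. Endothelial markers were at 118 to 179 RPKM in posterior oral and 52.3 to 79.3 in posterior nasal libraries, with no overlap. In posterior lateral and posterior medial libraries they were at 110 to 137 and 58.2 to 152 RPKM, which overlapped. The part of these markers in the posterior levels of Aldh1a2 was not tested either.

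Aldh1a3, the related dehydrogenase best known from the eye and nasal epithelium (gene 56847, chromosome 7, 73535779 to 73572363), had another order. Its highest values were in the anterior medial compartment, at 9.85, 7.25 and 20.3 RPKM, and in the posterior nasal one, at 12.9, 6.80 and 6.98. Posterior oral libraries were at 2.18, 3.32 and 3.77, all below the posterior nasal ones, with a log2 difference of oral from nasal of -1.46 (SE 0.32, adjusted p = 0.0923). Aldh1a3 passed the minimum of that comparison only through the nasal libraries. Anterior lateral libraries were at 8.97, 1.94 and 3.55 and overlapped the medial ones, with a difference of -1.49 (SE 0.57, adjusted p = 0.267). Neither difference passed the threshold.

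Posterior medial values of Aldh1a3 were 2.02, 0 and 1.68 RPKM, below every anterior medial library. The fitted difference was -3.98 (SE 1.23, adjusted p = 0.831) with the library at 0, and -2.56 (adjusted p = 0.0797) without posterior medial replicate 2. The gene passed the minimum there only through the anterior libraries. Sums of epithelial markers are set beside Aldh1a3 as a description. The 10 epithelial markers summed to 86.3, 93.3 and 146 RPKM in anterior medial replicates 1 to 3, and in 5 of the 8 compartments the library with the most Aldh1a3 also had the highest epithelial sum, while in the other 3, posterior medial, posterior lateral and anterior nasal, it did not. In posterior medial replicate 2, which had no Aldh1a3, the epithelial sum was 180, the highest of all libraries. That library is among those that stood apart, with the fewest genes above 0, and its Aldh1a2 and Rarb were also at 0. How many compartments would match without any link was not worked out, and the part of epithelium in these levels was not tested.

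Dhrs3, a reductase that returns retinal to retinol and so lowers the supply for retinoic acid synthesis (gene 20148, chromosome 4, 144482730 to 144517548), was higher laterally than medially in the anterior palate. Medial libraries were at 9.40, 8.12 and 8.05 RPKM and lateral ones at 18.7, 24.2 and 21.2. The log2 difference was 1.31 (SE 0.14, adjusted p = 0.00454), or 2.48-fold. It remained called without any 1 library, at adjusted p of 0.0133 to 0.0367. The estimate was unchanged in a fit of all 25 libraries, where 8 compartments share 1 estimate of the spread, but its adjusted p there was 1.00. Dhrs3 and Aldh1a2 thus both rose from medial to lateral, and Dhrs3 was above Aldh1a2 in 24 of the 25 libraries.

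The posterior lateral libraries held Dhrs3 at 16.1, 23.8 and 16.9 RPKM, and the medial ones at 17.6, 0.654 and 7.86. The low medial value was that of posterior medial replicate 2, and the groups overlapped. Posterior nasal values were 29.7, 21.98 and 16.8, above every posterior oral value (9.19, 10.9 and 11.5) and every anterior nasal one (12.5, 8.74, 10.4 and 12.7). The log2 difference of posterior oral from nasal was -1.07 (SE 0.26, adjusted p = 0.125), with -1.68 and -0.96 in the 2 runs that held both. That of posterior from anterior nasal was 1.01 (SE 0.25, adjusted p = 0.0777). The oral-nasal difference itself changed along the axis by -1.52 (SE 0.51, unadjusted P = 0.0115), which did not pass adjustment (0.873), and by -2.02 (adjusted p = 0.106) without anterior oral replicate 1.

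Cyp26b1, which breaks retinoic acid down (gene 232174, chromosome 6, 84521408 to 84543902), ran against Aldh1a2 in the anterior palate. Anterior medial libraries were at 64.5, 55.5 and 59.7 RPKM, the 3 highest values of the gene, and anterior lateral ones at 24.4, 33.4 and 24.5. Lateral was lower by a log2 difference of -1.14 (SE 0.16, adjusted p = 0.0127), a 2.20-fold change. The call was lost without anterior lateral replicate 3, at an adjusted p of 0.0716, with no expression minimum, at 0.0690, and with the replicate number as a block, at 0.0532. It was also lost in the fit of all 25 libraries, at 0.993, and with run as a term, where the difference was -1.49. Epithelial markers summed to 86.3 to 146 RPKM in anterior medial and 53.0 to 106 in anterior lateral libraries. The 4 cartilage markers summed to 18.9 to 35.1 in anterior medial and 9.03 to 11.4 in anterior lateral libraries, with no overlap, so they were higher where Cyp26b1 was higher and where Aldh1a2 and Dhrs3 were lower. The part of either marker list was not tested.

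Cyp26b1 was also lower in the posterior than in the anterior palate. The 13 anterior libraries ranged from 21.6 to 64.5 RPKM with a median of 33.4, and the 12 posterior ones from 6.04 to 32.1 with a median of 19.1. The ranges overlapped. The log2 difference of all posterior from all anterior libraries was -0.99 (SE 0.26, adjusted p = 0.0282), or 1.99-fold. That fit had no term for compartment and took libraries of all compartments as replicates of a level. The difference was -0.49, -1.25 and -0.40 in the 3 runs that held libraries of both. The first held oral and nasal libraries of both levels. The other 2 compared unlike compartments, since the anterior libraries of the second were all medial and that of the third was lateral, against posterior libraries that included other compartments. The difference was -0.71 with run as a term, where the adjusted p was 0.213, and -1.10 (adjusted p = 0.0142) without both libraries that stood apart. Without anterior medial replicate 3 the adjusted p was 0.0508.

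By compartment, posterior medial libraries held Cyp26b1 at 6.04, 28.3 and 24.3 RPKM, below all anterior medial ones, a log2 difference of -1.89 (SE 0.61, adjusted p = 0.831), or -2.29 (adjusted p = 0.223) without posterior medial replicate 2. Posterior lateral libraries were at 6.27, 16.7 and 13.7, below all anterior lateral ones, a difference of -1.26 (SE 0.37, adjusted p = 0.232). The low values of 6.04 and 6.27 were those of replicate 1, each the only library of its run. Within the runs that held both levels, the difference was -1.19 medially and -0.69 laterally. Posterior oral libraries, at 19.8, 32.1 and 18.1, lay among the anterior oral ones at 24.9, 21.6 and 32.4. Posterior nasal libraries, at 18.4, 24.7 and 27.7, overlapped the anterior nasal ones at 37.9, 46.8, 41.4 and 22.2.

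The RPKM ratio of Cyp26b1 to Aldh1a2 in single libraries shows both genes at once. It was 34.3 to 83.7 in the anterior medial compartment, 2.21 to 2.39 in the anterior lateral one and 1.59 to 1.85 in the anterior oral one. Anterior medial libraries thus had far more Cyp26b1 transcript for each unit of Aldh1a2 than anterior lateral or oral ones. The ratio leaves out Aldh1a3, the related dehydrogenase, which was at 9.85, 7.25 and 20.3 RPKM in the anterior medial libraries. The anterior nasal ratios ran from 1.97 to 12.56. Posterior medial libraries gave 12.4 and 106 in the 2 libraries where Aldh1a2 was above 0. The other posterior ratios were 1.92 to 5.91 laterally, 1.86 to 4.995 orally and 1.69 to 6.38 nasally, so they overlapped with each other.

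**Figure D2:**
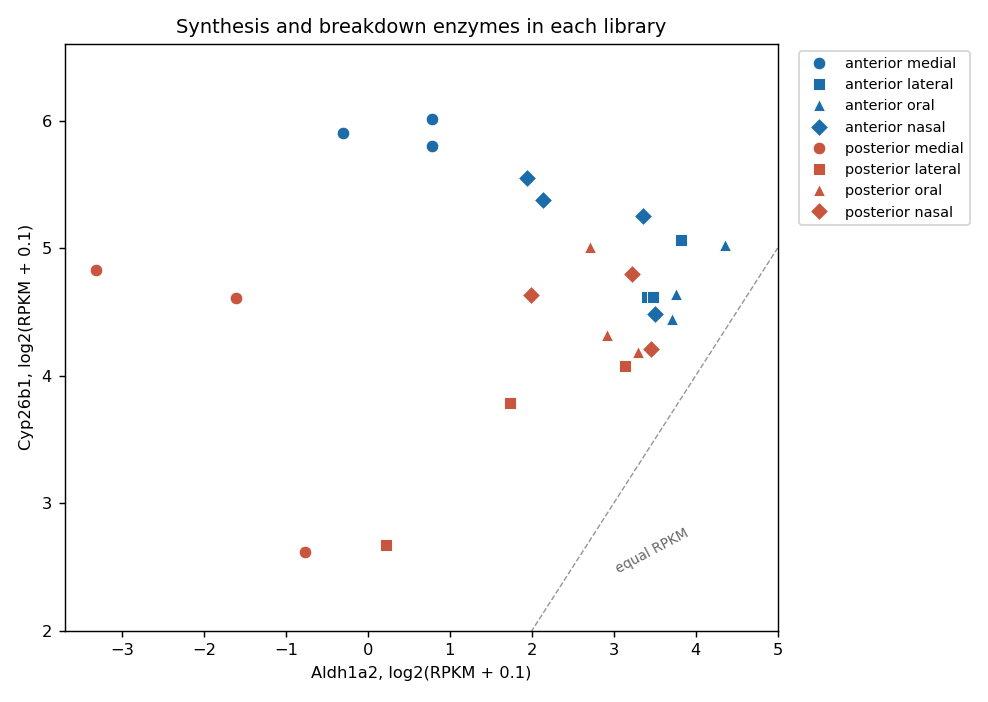
Aldh1a2 (x axis) against Cyp26b1 (y axis) in the 25 libraries, both as log2(RPKM + 0.1), with symbol shape for the compartment and colour for anterior (blue) or posterior (red); the dashed line marks equal RPKM. All 25 points lie above the line, and the 3 anterior medial libraries stand apart at high Cyp26b1 and low Aldh1a2, with ratios of 34.3 to 83.7.

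Crabp1, a cytoplasmic protein that binds retinoic acid (gene 12903, chromosome 9, 54612615 to 54620916), was lowest in the posterior medial compartment, at 62.2, 22.9 and 23.0 RPKM. No library of any other compartment was below 66.7. Posterior lateral libraries were close together at 119, 115 and 114, a log2 difference from medial of 1.85 (SE 0.45, unadjusted P = 0.00543), which did not pass adjustment (0.957), and 1.61 without posterior medial replicate 2. Anterior medial libraries were at 92.9, 136 and 186, and posterior medial ones were lower by a log2 difference of -2.05 (SE 0.50, adjusted p = 0.489), or -1.81 (adjusted p = 0.314) without posterior medial replicate 2. In run G, which held 2 posterior and 3 anterior medial libraries, the difference was -2.53. With the spread estimated over all 25 libraries the adjusted p was 0.00694, and 0.00689 with run as a term. The run G value and these fits include posterior medial replicate 2, and they were not repeated without it.

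The direction of the difference in Crabp1 was the same in the lateral and the opposite in the nasal compartment. Anterior lateral libraries, at 191, 152 and 181 RPKM, were above posterior lateral ones, with a posterior minus anterior log2 difference of -0.59 (SE 0.14, adjusted p = 0.134). Anterior nasal libraries, at 79.2, 77.8, 89.7 and 80.3, were below posterior nasal ones at 174, 104 and 93.4, a difference of 0.55 (SE 0.24, adjusted p = 0.273). Oral libraries overlapped, at 66.7, 173 and 220 in the anterior and 114, 186 and 176 in the posterior palate. The change of the medial-lateral difference along the axis was 1.46 (SE 0.54, unadjusted P = 0.0216, adjusted p = 0.964), or 1.22 without posterior medial replicate 2.

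Crabp2, the second binding protein, which delivers retinoic acid to the receptors (gene 12904, chromosome 3, 87752615 to 87757294), varied less between compartments, with means from 50.6 ± 9.51 RPKM in posterior nasal to 89.2 ± 14.3 in anterior lateral libraries (n = 3 each). Anterior nasal libraries were at 69.8, 114, 93.5 and 77.7 and posterior nasal ones at 48.8, 60.9 and 42.1. The groups did not overlap, with a log2 difference of -0.80 (SE 0.24, adjusted p = 0.125). Anterior lateral values were 72.9, 95.1 and 99.6 and posterior lateral ones 73.8, 42.6 and 62.5, a difference of -0.60 (SE 0.24, adjusted p = 0.394). The difference of all posterior from all anterior libraries was -0.39 (SE 0.23, adjusted p = 0.442) and became -0.58 with an adjusted p of 0.0151 without anterior oral replicate 1, whose Crabp2 was 15.6 against 66.8 and 87.4 in the other anterior oral libraries.

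The RPKM ratio of Crabp1 to Crabp2 was lowest in posterior medial libraries, at 0.237 to 0.844, followed by anterior nasal ones at 0.679 to 1.14. In every library of the other compartments Crabp1 was the more abundant. The ratio was 1.38 to 1.88 in anterior medial, 2.52 to 4.28 in anterior oral and 2.41 to 3.99 in posterior oral libraries.

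Rarb, the receptor gene best known as a direct target of retinoic acid (gene 218772, chromosome 14, 17263354 to 17651648), was low throughout and highest in the posterior nasal compartment, at 7.13, 7.75 and 5.01 RPKM. Posterior oral libraries were at 2.51, 1.89 and 2.60. Oral was lower in all 3, by a log2 difference of -1.46 (SE 0.25, adjusted p = 0.0368), a 2.75-fold change, and the difference was -1.47 and -1.76 in the 2 runs that held both. Rarb passed the minimum of that comparison only through the nasal libraries, each of which is needed for it. Without posterior oral replicate 1, 2 or 3 the adjusted p was 0.0907, 0.101 and 0.110, and without any 1 nasal library Rarb fell below the minimum. With the replicate number as a block the adjusted p was 0.0864, and with no minimum it was 0.168.

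Anterior nasal libraries held Rarb at 1.63, 3.04, 3.86 and 4.92 RPKM, below all posterior nasal ones, a log2 difference of 1.04 (SE 0.36, adjusted p = 0.186). Posterior lateral libraries were at 2.99, 5.87 and 3.48 and anterior lateral ones at 2.80, 1.19 and 1.65, where Rarb was below the minimum and a fit without one gave 1.11 (SE 0.40, adjusted p = 0.490). Anterior medial values were close together at 1.79, 1.90 and 1.73. The 5 osteoblast markers summed to 378 to 547 RPKM in the posterior nasal libraries, to 83.5 to 107 in posterior oral and to 90.6 to 119 in anterior nasal ones. They moved with Rarb, Dhrs3 and Aldh1a3 in the posterior nasal compartment, and their part in those levels was not tested.

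Receptors of this family bind a pair of short repeats, and the direct repeat spaced by 5 bases (DR5) is the classical retinoic acid response element. RefSeq promoters of GRCm38.p6, from 250 bases before to 50 after each gene's start, held a DR5 on either strand in 32 of 32851 promoters (0.0974%). The repeat searched was AGGTCA or the same letters with G as the leading A, with T in place of the G before TCA, or with both changes. That share is per promoter. Of the 9 genes, 7 had promoters there, 13 in all, and 1 gene, Rarb, held a DR5. The same pairs spaced by 1 base (DR1) were in 0.222% and by 2 bases (DR2) in 0.268% of promoters, and in none of these 7 genes. Of the 61 other retinoid genes, 41 had promoters there, 56 in all. Of these genes 1 held a DR1, 0 a DR2 and 1, Cyp26a1, a second breakdown enzyme, a DR5. The Rarb and Cyp26a1 stretches are shown because they carry a DR5, which is in capitals. The Rarb stretch is chr14:16575483-16575559 on the minus strand, where the element ends 36 bases before the start. The Cyp26a1 stretch is chr19:37697746-37697807 on the plus strand, with the element read from the opposite strand and 15 bases before the start.
Rarb: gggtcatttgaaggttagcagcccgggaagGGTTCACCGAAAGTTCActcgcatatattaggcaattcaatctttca
Cyp26a1: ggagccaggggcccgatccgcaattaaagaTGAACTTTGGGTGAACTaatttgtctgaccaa
Rarb was above 0 in 24 libraries while Cyp26a1 averaged 0.494 RPKM and did not reach the minimum.

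Rara and Rarg, the more abundant receptors, gave no call in any comparison. Rara (gene 19401, chromosome 11, 98799010 to 98836256) had compartment means from 18.9 ± 2.25 RPKM in anterior medial to 34.0 ± 10.9 in posterior oral libraries (n = 3 each). Posterior oral libraries were at 31.9, 45.7 and 24.3 and posterior nasal ones at 28.6, 17.7 and 13.2, with a log2 difference of 0.80 (SE 0.34, adjusted p = 0.611). The widest spread was in the posterior medial compartment, at 47.2, 1.96 and 17.0, where the low value was again replicate 2.

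Rarg (gene 19411, chromosome 15, 102065371 to 102087914) was at 42.7, 32.3 and 28.1 RPKM in the posterior nasal compartment and at 22.6, 21.3, 22.9 and 14.0 in the anterior nasal one. Those groups did not overlap, with a log2 difference of 0.77 (SE 0.25, adjusted p = 0.164). Anterior medial values were 37.8, 24.4 and 25.9 and anterior lateral ones 20.9, 16.8 and 21.5, a difference of -0.55 (SE 0.19, adjusted p = 0.229) that turned to 0.0848 with run as a term.

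Counted by comparison, calls among the 9 genes were few outside the anterior medial-lateral axis. For anterior lateral against medial, 8 of the 9 genes were tested and 3 were called, Aldh1a2 and Dhrs3 higher and Cyp26b1 lower, where 2.51% of all genes tested were called (1.43% higher and 1.08% lower), and 4 had groups that did not overlap, as did 21.3% of all genes. For posterior oral against nasal, 9 were tested and 1, Rarb, was called, as lower, where 1.25% of all genes were called and 0.661% as lower, and 3 did not overlap (11.8% of all genes). Rarb passed that minimum only through the nasal libraries, and with no minimum its adjusted p from limma was 0.168. Aldh1a2 passed the anterior minimum only through the lateral libraries. For both genes the filter was not independent of the difference. None was called for posterior lateral against medial (6 tested, 0% of all genes called) or anterior oral against nasal (8 tested, 0% called). At an unadjusted P under 0.05, limma gave 159 genes (1.54%) in the former, Crabp1 the 1 member among them, and 318 (2.98%) in the latter, Aldh1a2 the 1 member among them. Among the members tested, the same single genes were those whose groups did not overlap, as for 6.62% and 3.67% of all genes. The median log2 difference of the genes tested among the 9 was 0.12 for anterior lateral against medial, beside -0.03 over all genes, and -0.04 for posterior oral against nasal, beside -0.01.

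**Figure D3:**
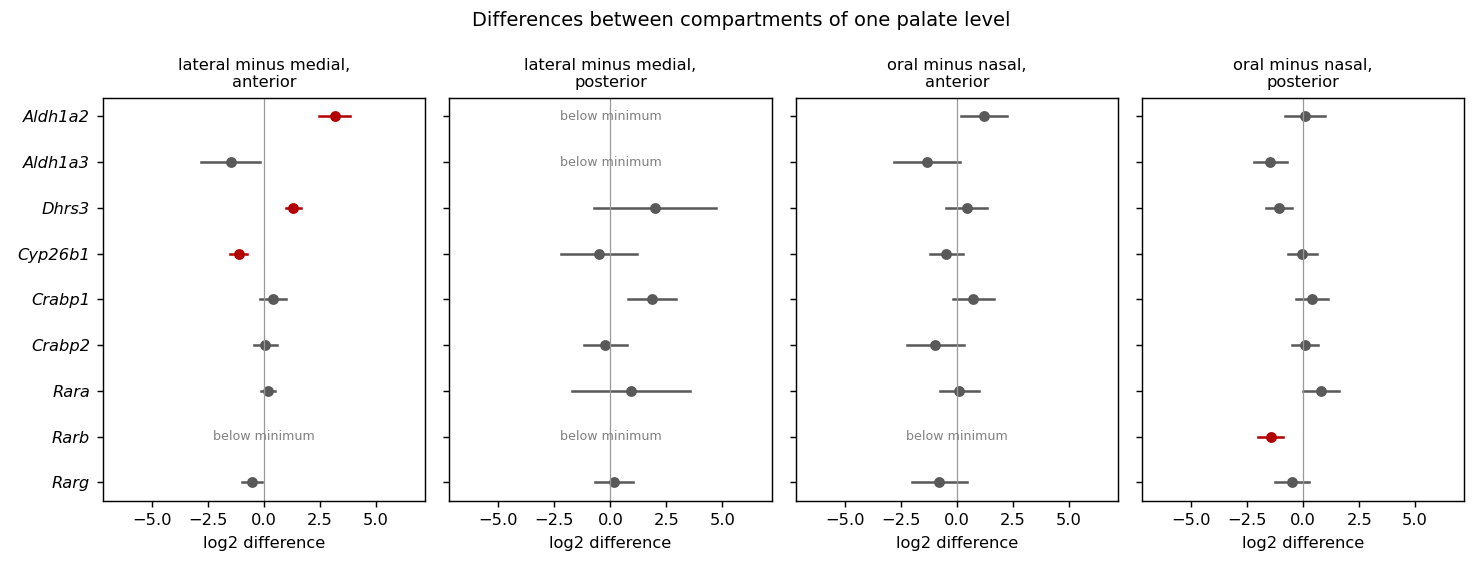
Log2 differences (x axis) of the 9 genes between compartments of the same palate level, as points with 95% confidence intervals from limma; red marks an adjusted p under 0.05, and genes under the expression minimum are so labelled. The calls are Aldh1a2 (3.15), Dhrs3 (1.31) and Cyp26b1 (-1.14) for anterior lateral minus medial and Rarb (-1.46) for posterior oral minus nasal. Aldh1a2 and Rarb passed the minimum there only through the compartment where they were higher.

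Along the anterior-posterior axis, 1 of the 7 genes tested, Cyp26b1, was called over all libraries, where 3.32% of all genes were called and 1.66% as lower. Its groups overlapped, as did those of the other 6, and 0.267% of all genes had groups that did not. Within single compartments none of the 9 was called: 7 were tested in the medial (0.106% of all genes called), 7 in the lateral (1.39%), 7 in the oral (0.179%) and 9 in the nasal compartment (2.21%). Unadjusted P values under 0.05 were reached by 3 of the genes medially, 4 laterally, 1 orally and 4 nasally, where 4.04%, 11.6%, 3.57% and 18.7% of all genes reached them. The oral one was Aldh1a2, which was lower in the posterior by -0.97 (SE 0.31, adjusted p = 0.853), or -1.06 without anterior oral replicate 1, and it was lower laterally by -1.87 (SE 0.66, adjusted p = 0.330). Groups did not overlap for 3 of the genes medially, 3 laterally, 1 orally and 5 nasally, where 11.9%, 18.9%, 8.26% and 20.3% of all genes did not. The median gene was 0.12 higher in the posterior on the log2 scale in both the oral and the nasal comparison. Its posterior minus anterior difference was -0.10 in the medial and -0.03 in the lateral comparison. The differences given for those compartments include these shifts. Neither change of a difference along the axis was called for any of the 9 genes, with 0.00902% (medial-lateral) and 0.035% (oral-nasal) of all genes called. At an unadjusted P under 0.05 limma gave 1 member in each, Crabp1 and Dhrs3, where 3.36% and 3.38% of all genes were reached.

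**Figure D4:**
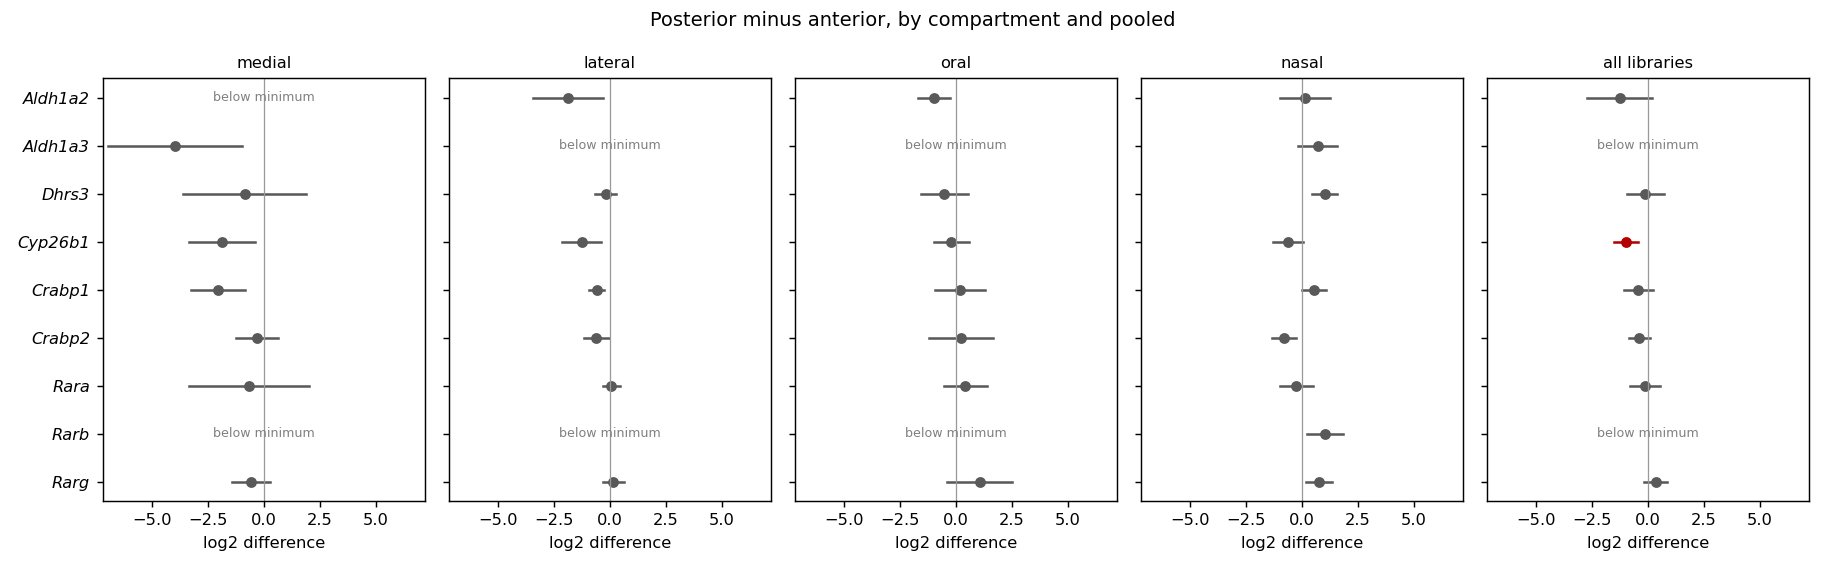
Log2 differences of posterior from anterior libraries (x axis) for the 9 genes, by compartment and over all libraries, as points with 95% confidence intervals from limma; red marks an adjusted p under 0.05. The only call is Cyp26b1 over all libraries (-0.99), and its points are also below 0 in each compartment; Crabp1 is below 0 medially (-2.05) and laterally (-0.59) and above 0 nasally (0.55).

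A list of 61 other genes of retinoid uptake, metabolism, receptors, cofactors and response held 35 genes at or above 5 RPKM in at least 3 libraries and 6 below 1 RPKM in every library. For anterior lateral against medial, 30 were tested, and Stra6 and Nr2f1 were among those called. Stra6, the cell surface receptor for vitamin A carried by retinol binding protein, rose by 1.89 (SE 0.28, adjusted p = 0.0178), from 1.75 to 3.28 RPKM in medial to 7.76 to 13.2 in lateral libraries. Nr2f1, an orphan receptor that binds related sites, fell by 0.78 (SE 0.11, adjusted p = 0.0155). The call for Stra6 held without any 1 medial library (0.0271 to 0.0454), while without a lateral one it fell below the minimum, and it was lost with no minimum (0.0890) and in the fits of all 25 libraries with and without run (1.00 in both). That for Nr2f1 was lost in 4 of 6 such fits (0.0530 to 0.0882), without anterior medial replicate 2 or any 1 anterior lateral library. The median difference of the 30 genes was 0.01.

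Rbp4, the carrier of retinol in blood, was at 12.9 to 17.5 RPKM in posterior nasal libraries, 1.25 to 2.71 in posterior oral and 1.47 to 5.78 in anterior nasal ones. It was the only 1 of 31 list genes called for posterior oral against nasal, at -2.92 (SE 0.30, adjusted p = 0.00584, or 0.0587 with no minimum), where it passed the minimum only through the nasal libraries, and of 32 for posterior against anterior nasal, at 2.30 (SE 0.40, adjusted p = 0.0222). The second call was lost without anterior nasal replicate 1 (0.0539) and without posterior nasal replicate 1, 2 or 3 (0.109, 0.0852 and 0.0858). Both calls were lost in the fits of all 25 libraries with and without run, at adjusted p of 0.529 or above. Among these compartments Rbp4 and the osteoblast markers given above were both highest in posterior nasal libraries, and the part of those markers was not tested. In the posterior medial compartment Rbp4 ran from 0.142 to 51.5 RPKM (mean 18.2, SD 28.9, n = 3), while osteoblast markers were at 67.1 to 73.6. Over all libraries Tgm2, a transglutaminase that retinoic acid induces, was higher in the posterior by 0.97 (SE 0.26, adjusted p = 0.0317), the only 1 of 25 tested, and the call was lost in 9 fits that left out 1 library each, at 0.0510 to 0.0612. No list gene was called for posterior lateral against medial, anterior oral against nasal or posterior against anterior in the other compartments.

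Over the 8 compartments 3 of 35 list genes were called, Nr2f1 (adjusted p = 0.00465), the homeobox gene Meis1 (0.00969) and Nr2f2, a relative of Nr2f1 (0.0303). The last was lost in 10 fits that left out 1 library, and with run as a term the calls for Meis1 and Nr2f2 were both lost (0.261 and 0.296). By role, the highest means over the 25 libraries were those of Fabp5, which binds fatty acids and retinoic acid, at 84.5 RPKM, the dehydrogenase Adh5 at 57.3, Nr2f1 at 28.4 and the receptor partner Rxra at 25.4, Cnot1 among cofactors at 57.4, and Meis2, a homeobox gene, among responsive genes at 51.2. Rdh10, the main embryonic retinol dehydrogenase, averaged 8.44 RPKM. Cyp26a1 and Cyp26c1 averaged 0.494 and 0.307, so that Cyp26b1 was the only breakdown enzyme of the family at the minimum. Aldh1a1, the third retinaldehyde dehydrogenase, averaged 4.39 RPKM and was highest in posterior nasal (8.98) and anterior nasal libraries (7.80). Reads that aligned both to it and to its close copy Aldh1a7 would have been removed with those of more than 1 alignment.

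**Figure D5:**
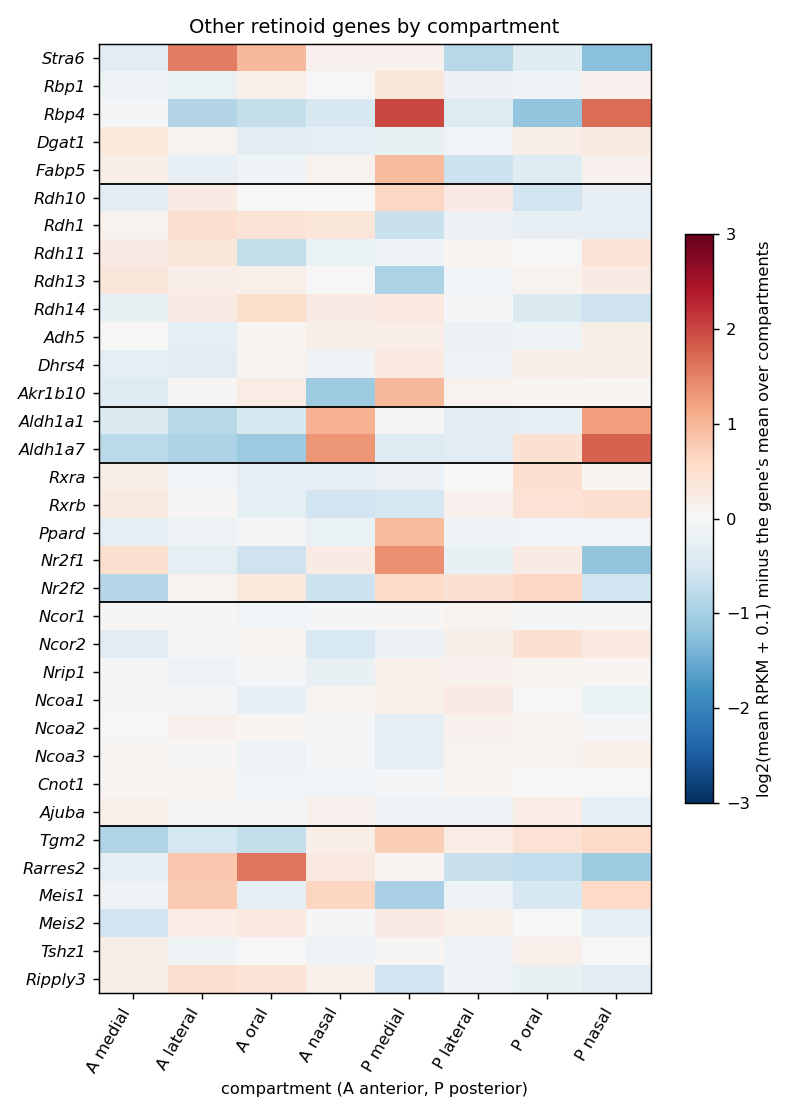
Mean levels of 34 other retinoid genes at or above the minimum (rows, divided by role) in the 8 compartments (columns), as log2(mean RPKM + 0.1) minus the mean of each gene over compartments, in red where higher and blue where lower. Stra6 is high in the anterior lateral and Rbp4 in the posterior nasal compartment; the high posterior medial value of Rbp4 comes from libraries between 0.142 and 51.5 RPKM.

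Genes whose mean levels over the 8 compartments were most like those of a member were sought among the 11913 genes tested over the 8 compartments, by Pearson's r of log2(RPKM + 0.1), as a description with no test. Akap12 was most like Aldh1a2 (r = 0.988 over 8 compartments and 0.859 over 25 libraries), Gpr125 most like Cyp26b1 (0.976 and 0.614) and Pdcd4 most like Dhrs3 (0.992 and 0.624). Mamstr was nearest to Crabp1 (0.989 and 0.671), Jmy to Crabp2 (0.967 and 0.533) and Cox4i2 to Aldh1a3 (0.983 and 0.842). For the receptors these were Slc7a7 for Rara (0.979 and 0.864), Rab3a for Rarb (0.967 and 0.668) and Eif3k for Rarg (0.985 and 0.738). Values that share a library share its depth. Among the 9 genes themselves Aldh1a2 and Dhrs3 had r = 0.800 over the 8 compartments, and Aldh1a2 and Cyp26b1 0.130.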

How the data were processed

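RNA from laser captured palate was amplified (NuGEN), tagmented with Nextera and sequenced. The authors deposited RPKM values for 37406 genes in 25 libraries, made in GeneSpring after removal of duplicate reads and reads with more than 1 alignment. The submitters' processing notes name TopHat and mm9 and give no version. RPKM were used as deposited, and a column headed by an alignment name was read as RPKM. The sequencing run was read from alignment names in 1 deposited header and in headers of the study's supplementary files.

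Tests were made with limma 3.58.1 in R 4.3.3 (lmFit, eBayes) on log2(RPKM + 0.1), with Benjamini-Hochberg adjustment over all genes tested and calls at an adjusted p under 0.05. Comparisons of compartments used their own libraries and genes that reached 5 RPKM in 3 or more of them. Posterior against anterior required 10 RPKM in 6 or more. A fold change on this scale understates that of low genes. Relative depth was implied by ratios of low values between libraries (549 of 552 agreed by way of another library). Its scale in reads was set by the lengths of 3 miRNA genes. On that scale 399 of 400 short genes had a length in whole bases. The paper states a higher average number of reads per sample. Intervals of depth cover counting error only. Tables were made with Python 3.11.15, pandas 2.3.3 and matplotlib 3.10.9. The scripts were tested on simulated data with known changes.

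All 9 genes are described in every compartment. From the list of 61 retinoid genes, those called (1 is not reported here) and, by role, those with the highest mean were named, and Rdh10, Rxra, Cyp26a1 and Cyp26c1 were added after their values were seen. All 61 were in the table, Bco1 and Ajuba under older symbols. The members and lists were chosen with earlier results of these data known. Marker sums were taken over lists for mesenchyme, epithelium, endothelium, red cells, myeloid cells, skeletal muscle, Schwann cells and neurons, osteoblasts and cartilage. Alternatives were pseudocounts of 1 and 0.01, no minimum, median centring, quantile normalization, a trend of variance with mean, a block for the replicate number, a fit of all 25 libraries with and without run, and each library left out. A fit without both libraries that stood apart was added after seeing the data. Same-numbered anterior oral and nasal replicates deviated together (correlations 0.242, 0.218 and 0.116 over genes), and no other pair of compartments had all 3 above 0.1.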

Additional observations from a re-analysis of the deposited data

Results flagged for a closer look

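The difference of Crabp1 between posterior and anterior libraries had opposite directions in different compartments, with groups that did not overlap in each of 3. The log2 difference of posterior from anterior was -2.05 in the medial and -0.59 in the lateral compartment, and 0.55 in the nasal compartment. The difference between medial or lateral and nasal was not tested. Among the 9 genes in the 4 anterior nasal libraries, the only group of a size to be tested for a lone sample by Dixon's ratio, none stood out.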

How the results depend on the processing

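Counts of the 9 genes called changed as follows. For anterior lateral against medial, 3 became 2 with no minimum, quantile normalization or the replicate block, 1 in a fit of all 25 libraries, 0 with run added and 1 to 3 with 1 library left out. For posterior oral against nasal, 1 became 0 with no minimum, a mean-variance trend, the replicate block, all 25 libraries, or run added, and was 0 to 0 with 1 library left out. For posterior against anterior medial, 0 became 3 with all 25 libraries and 2 with run added. For posterior against anterior, 1 became 2 with all 25 libraries fitted by compartment (Aldh1a2 added), 0 with run added, 0 to 2 with 1 library left out (0 without anterior medial replicate 3, 2 without anterior oral replicate 1) and 2 without both libraries that stood apart (Crabp2 added, adjusted p = 0.0169). For the 8 compartments, 3 became 4 with a pseudocount of 1 (Aldh1a3 added), 2 with a pseudocount of 0.01, no minimum, median centring or run added (Cyp26b1 lost in each), 6 with quantile normalization, 6 without both libraries that stood apart and 2 to 5 with 1 left out. The counts of the other comparisons were 0 in every fit. Rarg, anterior lateral minus medial, turned from -0.55 to 0.0848 with run added. Over single genes, 791 alternative values kept direction and side of the threshold, 90 kept direction and lost the call, 17 kept direction and gained it, and 1 turned.

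With the replicate block, the calls for Rarb (adjusted p = 0.0864), Cyp26b1 for anterior lateral against medial (0.0532), Nr2f1 (0.0605) and Rbp4 for posterior against anterior nasal (0.0556) were lost. No call was made for anterior oral against nasal with or without it. Fits that left out a library needed by a gene to reach the minimum gave no value for it. The causes of these changes were not tested. Low levels, such as those of Rarb and of Aldh1a2 in posterior medial libraries, rest on few reads.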

Other observations

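Other cell type markers varied between compartments that the retinoic acid comparisons use. Skeletal muscle markers summed to 28.1 to 42.9 RPKM in anterior oral and 20.8 to 55.5 in anterior nasal libraries, which overlapped. They were at 3.93 to 15.8 in anterior lateral libraries, which no pairwise test set against anterior oral ones. Red cell markers, with 5 of 6 found in the table, summed to 630 to 785 RPKM in posterior medial and 263 to 595 in anterior medial libraries. Cartilage markers were at 46.1 to 81.5 RPKM in posterior nasal and 21.9 to 30.6 in anterior nasal libraries. Myeloid markers were at 98.1 to 173 RPKM in posterior medial and 48.9 to 133 in anterior medial libraries, and those of Schwann cells and neurons at 10.2 to 15.9 in posterior lateral and 18.9 to 21.2 in anterior lateral ones.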
